A study of Homo sapiens with 18 samples.

Results

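Genes of the plasminogen activator system and of related protease inhibitors were followed in IMR90 cells, primary human lung fibroblasts of wild-type genotype, over 18 poly(A) RNA libraries. The genes were taken by name from the count table: PLAU, PLAT, PLAUR, SERPINE2, SERPINB2, TFPI and TFPI2, 7 of 60623 genes. All 7 passed the filter on low counts, which kept 18151 genes. The cells were proliferating (Prolif) or made senescent by ionizing radiation (IR), and each state received the solvent DMSO, RG7388 or HDM201, with 3 libraries in each of the 6 groups. RG7388 and HDM201 both block MDM2, the ligase that marks the transcription factor p53 for degradation. In the irradiated groups the compounds were added on day 4, renewed with the medium, and RNA was taken on day 11. Per the methods, the compounds were used at different concentrations, so their values are placed side by side and were not tested against each other. All groups are cultures of a single fibroblast strain, and the labels do not say whether replicates were separate cultures, so p-values measure the spread between these libraries, which may be partly technical.

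Plasminogen is a circulating zymogen that becomes plasmin, a broad protease of fibrin and matrix, when it is cut by an activator. PLAU encodes urokinase and PLAT encodes tissue plasminogen activator. Urokinase works at the cell surface, where PLAUR, its GPI-anchored receptor, holds it beside integrins. SERPINE2 (protease nexin 1) and SERPINB2 (plasminogen activator inhibitor 2) are serpins, which trap their protease in an irreversible complex. TFPI and TFPI2 are Kunitz-type inhibitors. TFPI blocks the tissue factor pathway of coagulation, and TFPI2 is a matrix-bound inhibitor of plasmin and related serine proteases. Urokinase pathway genes are often counted among the secreted products of senescent fibroblasts.

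Libraries held 21609198 to 66647700 counts. Levels are given as CPM, counts per 1e6 reads scaled with TMM (trimmed mean of M values), as mean ± SD with n = 3, and changes as log2 fold changes ± SE with p adjusted over all genes tested with edgeR. Of 12 fibroblast markers, 12 reached 1 CPM, and their summed level ran from 39692 to 57897 CPM in proliferating libraries and from 17468 to 26471 in irradiated ones. Defining markers of other cell types were near 0, with group means of PECAM1 and CDH5 (endothelium) and PTPRC (leukocytes) of at most 0.255 CPM. KRT18, an epithelial keratin, moved with the groups at 209 ± 7.59 CPM in Prolif_DMSO, 88.4 ± 5.66 in IR_DMSO and 216 ± 15.5 in IR_RG7388, while the epithelial marker CDH1 was at most 0.23 CPM. Summed over 10 epithelial markers the level was 236 to 300.2 CPM in proliferating libraries, 117 to 126 in IR_DMSO and 195 to 285 in irradiated cells given a compound. Over 10 endothelial markers it was 82.5 to 94.3 CPM in proliferating and 114 to 139 in irradiated libraries, most of it TEK, and over 10 leukocyte markers it was 1.89 to 4.8 CPM. The part of these shifts in the changes of the 7 genes was not tested. The labelled states were checked with CDKN1A, the p21 cell cycle inhibitor, at 231 ± 13.2 CPM in Prolif_DMSO and 1818 ± 95.1 in IR_DMSO. The proliferation gene MKI67 was at 506 ± 51.9 and 28.9 ± 9.57. With RG7388 and HDM201, CDKN1A was at 748 ± 43.0 and 627 ± 104 CPM in proliferating cells and 2110 ± 47.3 and 1763 ± 96.0 in irradiated cells. MDM2 mRNA was at 170.2 ± 1.63 CPM in IR_DMSO and at 163 ± 8.94 and 162 ± 23.7 with the compounds. GDF15, checked with them, was at 353 ± 47.5 CPM in IR_DMSO and at 106 ± 1.04 and 93.6 ± 7.53 with the compounds. Replicate 3 of Prolif_HDM201 and replicate 1 of IR_DMSO lay farthest from their group mates, at root mean square log2 distances of 0.699 and 0.603 against 0.363 to 0.592 for the others, and values without both are given beside the results whose call they change.

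The genes lie on 6 chromosomes (hg38, GENCODE 44), and none of them neighbours another. PLAU is at chr10:73909177-73917496 on the plus strand. PLAUR (chr19:43646095-43670547), TFPI2 (chr7:93885396-93890753), SERPINE2 (chr2:223975045-224039318) and TFPI (chr2:187464230-187565760) are on the minus strand, and SERPINB2 (chr18:63871692-63903888) is on the plus strand. The lncRNA C10orf55 runs antisense to PLAU and shares 915 of its 2949 exonic bases, and it was counted at 2.94 to 7.12 CPM. If strand was not used, reads from the shared bases may be left uncounted or assigned to the other gene. ENSG00000289724, a protein-coding gene on the same strand as SERPINB2, shares 547 of its 2741 exonic bases and was not found by name among the counted genes. For TFPI2 the antisense partner GNGT1 shared 44 bases and did not exceed 0.167 CPM.

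The stretches of 250 bases just before the transcription start of the 2 genes with the largest rises after irradiation are shown because both hold an AP-1 letter match. They are RefSeq sequence of GRCh38.p14 in the direction of transcription, at chr7:93890754-93891003 on the minus strand for TFPI2 and chr18:63887455-63887704 on the plus strand for SERPINB2. Capitals mark the AP-1 letters TGANTCA in both, a match to the kappaB consensus farther upstream in TFPI2 and a TATA box (TATAAA) close to the start of SERPINB2.
TFPI2: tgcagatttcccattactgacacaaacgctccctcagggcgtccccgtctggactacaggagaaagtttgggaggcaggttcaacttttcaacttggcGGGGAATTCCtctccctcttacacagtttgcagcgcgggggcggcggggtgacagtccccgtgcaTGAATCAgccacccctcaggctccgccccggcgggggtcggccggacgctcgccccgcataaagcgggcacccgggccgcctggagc
SERPINB2: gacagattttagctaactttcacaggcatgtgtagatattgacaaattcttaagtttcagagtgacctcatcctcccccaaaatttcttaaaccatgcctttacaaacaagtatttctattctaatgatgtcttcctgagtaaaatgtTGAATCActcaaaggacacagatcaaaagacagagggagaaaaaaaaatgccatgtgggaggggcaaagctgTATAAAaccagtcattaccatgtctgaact
The AP-1 match stood at -87 to -81 from the start in TFPI2, at -102 to -96 in SERPINB2 and at -186 to -180 in PLAUR, whose level went the other way. The kappaB match of TFPI2 was at -152 to -143 and the TATA box of SERPINB2 at -30 to -25. Searched on both strands of 34796 RefSeq windows of 250 bases before to 50 after a start, AP-1 letters were in 7.73% of windows, the kappaB consensus in 11.3% and TATAAA in 11.6%. A p53 half-site (6.65% of windows) and the CRE letters TGACGTCA (1.84%) were not matched in the 8 windows kept, which belong to 6 genes. No window of PLAT was kept, so its motifs are not described. The windows of PLAU, SERPINE2 and TFPI held none of the motifs searched. The motifs were chosen after the expression values were known, and a match describes letters, not binding.

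**Figure D1:**
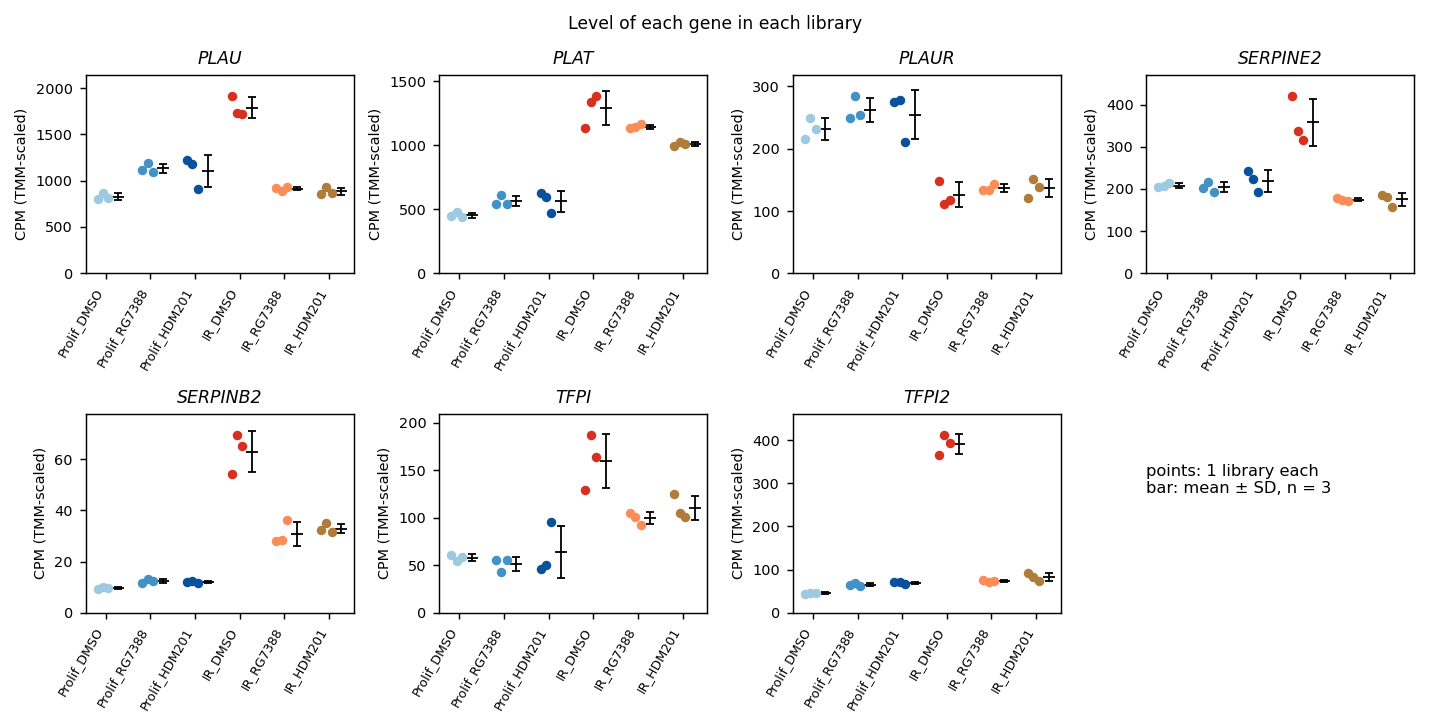
TMM-scaled CPM (linear axis from 0) of each gene in each of the 18 libraries by group, with the mean and SD of 3 libraries beside the points. After irradiation every gene but PLAUR was higher. In irradiated cells given a compound PLAU was near its Prolif_DMSO level, and SERPINE2 was 1.19-fold under its own, which was not called. TFPI2 was far under IR_DMSO but still 1.61-fold and 1.83-fold over Prolif_DMSO, PLAT stayed high and PLAUR stayed low.

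The first comparison sets irradiated senescent cells against proliferating cells, both in DMSO. The collection day of the proliferating cells is not given, so irradiation, senescence and time in culture cannot be told apart. In IR_DMSO against Prolif_DMSO both activators, both serpins and both Kunitz inhibitors rose and the urokinase receptor fell, so 7 of 7 were called, 6 higher and 1 lower, where 51.6% of all genes tested were called, 26.3% higher and 25.3% lower. The median log2 change of the 7 was 1.47, beside 0.05 over all genes. In bulk RNA, a change in the number of cells of a kind and a change in RNA per cell cannot be told apart. For each of the 7 the libraries of both groups did not overlap, which also held for 61.2% of all genes tested.

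Among the activators, PLAU was at 799, 869 and 818 CPM in the Prolif_DMSO libraries and at 1916, 1726 and 1716 in IR_DMSO. Every irradiated library lay above every proliferating one, and the log2 change was 1.11 ± 0.10 (adjusted p = 5.09e-09). PLAT, on chromosome 8, stood at 448, 475 and 438 CPM and then at 1136, 1341 and 1386. Its rise of 1.51 ± 0.11 (adjusted p = 5.3e-11) was larger than that of PLAU on the log2 scale, although the difference between the genes was not tested. PLAUR, the receptor, went from 216, 250 and 231 CPM to 149, 112 and 118, so that the highest irradiated library lay under the lowest proliferating one. The log2 change was -0.88 ± 0.12 (adjusted p = 2.36e-06).

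Of the inhibitors, TFPI2 had the largest change of the 7. It was at 42.6, 46.5 and 46.6 CPM in Prolif_DMSO and at 366, 412 and 393 in IR_DMSO. That is 8.64-fold, or 3.11 ± 0.10 on the log2 scale (adjusted p = 1.28e-16). The next was SERPINB2, a serpin kept largely inside cells. It was at 9.07, 9.83 and 9.57 CPM in Prolif_DMSO and at 54.1, 69.5 and 65.4 in IR_DMSO. Its rise was 6.65-fold, at a log2 change of 2.73 ± 0.12 (adjusted p = 2.01e-14). TFPI was at 60.6, 54.0 and 58.8 CPM and then at 129, 187 and 164, with replicate 1 of IR_DMSO lowest and a wider error than the others (1.47 ± 0.21, adjusted p = 1.64e-05). The smallest rise was in SERPINE2, an inhibitor of thrombin, urokinase and plasmin that binds cell surface proteoglycans, from 204, 206 and 214 CPM to 421, 337 and 317 (0.78 ± 0.11, adjusted p = 2.27e-06). Here replicate 1 of IR_DMSO was the highest of the group.

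The next comparison asks what an MDM2 inhibitor did to cells already irradiated. With either compound 5 of the 7 were lower than in IR_DMSO and the other 2 were not called. For IR_RG7388 the share of all genes called was 22.8%, of which 11.9% of all genes lower. For IR_HDM201 it was 21.3%, with 11.3% lower. Median log2 changes of the 7 were -0.97 with RG7388 and -0.94 with HDM201, beside -0.03 and -0.02 over all genes. Both comparisons use the same IR_DMSO libraries, so they are not independent of each other, nor of the comparison above.

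TFPI2 fell furthest. Its libraries were at 75.2, 70.9 and 72.2 CPM in IR_RG7388 and at 92.1, 83.3 and 72.9 in IR_HDM201, all far under the lowest IR_DMSO library of 366. Log2 changes were -2.42 ± 0.10 (adjusted p = 2.94e-14) and -2.24 ± 0.10 (adjusted p = 1.26e-13), or 5.36-fold and 4.71-fold lower. PLAU was at 916, 893 and 927 CPM with RG7388 and at 853, 929 and 871 with HDM201. These are again well under the IR_DMSO libraries, with log2 changes of -0.97 ± 0.10 (adjusted p = 2.05e-07) and -1.01 ± 0.10 (adjusted p = 1.36e-07).

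SERPINE2 fell by nearly the same factor. It was at 179, 174 and 172 CPM with RG7388 and 186, 182 and 158 with HDM201, and the log2 change was -1.03 ± 0.11 for both (adjusted p = 2.01e-07 and 2.82e-07). SERPINB2 was at 28.1, 28.4 and 36.3 CPM with RG7388 and 32.3, 34.9 and 31.5 with HDM201. Its libraries lay between those of IR_DMSO and Prolif_DMSO, with log2 changes of -1.03 ± 0.12 (adjusted p = 5.2e-07) and -0.94 ± 0.12 (adjusted p = 2.48e-06).

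TFPI and PLAT gave smaller changes. TFPI was at 105, 101 and 92.4 CPM with RG7388, a fall of 0.68 ± 0.21 on the log2 scale (adjusted p = 0.0256) that lost its call without replicate 2 or 3 of either group (adjusted p of 0.0552 to 0.0959). With HDM201 it was at 125, 105 and 101 CPM. No library overlapped IR_DMSO, which also held for 36.2% of all genes tested, and the log2 change of -0.54 ± 0.21 was not called (adjusted p = 0.0794). This change was called in 8 of 17 alternative analyses, at an adjusted p of 4.68e-05 without both libraries that lay apart. PLAT was at 1133, 1140 and 1163 CPM with RG7388, a group whose lowest library lay just under the lowest of IR_DMSO. The log2 change was -0.17 ± 0.10 and was not called (adjusted p = 0.272, 95% interval -0.39 to 0.05). It was called in 5 of 17 alternative analyses, at -0.36 with library totals (adjusted p = 0.00175), at -0.32 in the 3 analyses of FPKM and at -0.25 without both libraries that lay apart (adjusted p = 0.0108). With HDM201, PLAT was at 996, 1027 and 1009 CPM, all under the lowest IR_DMSO library, and the log2 change of -0.35 ± 0.10 was called (adjusted p = 0.0195) but lost the call in 7 of 17 alternative analyses, at adjusted p up to 0.107.

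PLAUR did not follow the other genes. Its libraries in IR_RG7388 were at 134, 133 and 143 CPM and those in IR_HDM201 at 121, 151 and 138, within or close to the range of IR_DMSO. The log2 change was 0.11 ± 0.12 with each compound (adjusted p = 0.561 and 0.571), with an interval from -0.14 to 0.36 in both cases. Without both libraries that lay apart it was 0.25 with each compound (adjusted p = 0.0427 and 0.047).

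**Figure D2:**
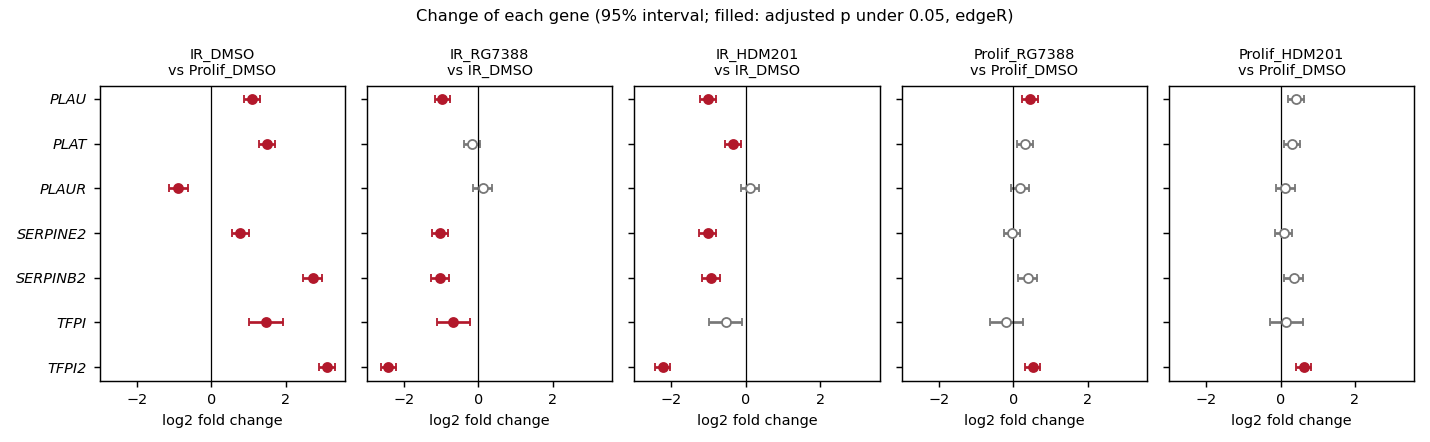
Log2 fold change of each gene in 5 comparisons, with 95% intervals, where filled red points passed an adjusted p of 0.05 in edgeR and open grey points did not. TFPI2 moved from 3.11 after irradiation to -2.42 and -2.24 with the compounds, and PLAUR was the sole gene under 0 after irradiation.

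How far irradiated and treated cells stood from untreated proliferating cells differed by gene. Against Prolif_DMSO, 4 genes were higher and 1 lower in IR_RG7388, where 49.2% of all genes were called, 24.6% higher and 24.6% lower. In IR_HDM201 4 were also higher and 1 lower, where 50.2% were called, 25.2% higher and 25% lower. PLAU stood at 912 and 884 CPM in the treated irradiated groups and 829 in Prolif_DMSO. The log2 differences of 0.14 ± 0.10 and 0.09 ± 0.10 were not called, with 95% intervals from -0.07 to 0.35 and from -0.12 to 0.30. They were called in 5 and 4 of 17 alternative analyses, at 0.24 for each compound with library totals (adjusted p = 0.0114 and 0.0122) and at 0.25 to 0.26 on FPKM. SERPINE2 differed from its Prolif_DMSO level by -0.25 ± 0.11 with both compounds, with 95% intervals from -0.47 to -0.03 and from -0.47 to -0.02. It was not called after adjustment over all genes (adjusted p = 0.0607 and 0.0637). That difference was called in 4 of 17 alternative analyses for each compound. Among them were the replicate block (adjusted p = 0.0409 and 0.0402) and the analysis without both libraries that lay apart (-0.27 for each, adjusted p = 0.00217 and 0.00229).

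TFPI2 remained 1.61-fold higher with RG7388 (0.69 ± 0.09 on the log2 scale, adjusted p = 2.06e-06) and 1.83-fold higher with HDM201 (0.87 ± 0.10, adjusted p = 6.11e-08). SERPINB2 remained 3.27-fold and 3.47-fold over Prolif_DMSO, and TFPI 1.73-fold and 1.91-fold. PLAT remained 2.52-fold and 2.23-fold higher (adjusted p = 3.79e-10 and 4.32e-09), and PLAUR was still 1.7-fold lower with either compound (adjusted p = 1.52e-05 and 1.47e-05).

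In proliferating cells the compounds moved these genes little, and the calls pointed upward. With RG7388, 2 of 7 were higher, where 1.54% of all genes tested were called and 1.2% were higher. With HDM201, 1 of 7 was higher, where 0.7% were called and 0.545% were higher. The median log2 change of the 7 was 0.31 with each compound.

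TFPI2 was at 64.1, 67.9 and 61.9 CPM with RG7388 and 71.2, 70.0 and 67.2 with HDM201, above every Prolif_DMSO library. The rises were 0.52 ± 0.09 (adjusted p = 0.00482) and 0.62 ± 0.09 (adjusted p = 0.00103), and that with RG7388 was not called without replicate 1 of Prolif_DMSO (adjusted p = 0.0632). PLAU was at 1116, 1190 and 1099 CPM with RG7388, a rise of 0.45 ± 0.10 (adjusted p = 0.0224) that was lost when any single library of the comparison was left out (adjusted p of 0.0669 to 0.169). With HDM201 it was at 1219, 1183 and 911 CPM, where replicate 3 was the low library, and the change of 0.41 ± 0.10 was not called (adjusted p = 0.063). It was 0.54 without both libraries that lay apart (adjusted p = 3.61e-05) and 0.54 without replicate 3 of Prolif_HDM201 alone (adjusted p = 0.000572), and PLAT was then also called, at 0.43 (adjusted p = 0.00628).

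For the remaining genes the test on all libraries gave no call. PLAT was at 563 and 564 CPM with RG7388 and HDM201 against 454 in Prolif_DMSO, a log2 change of 0.31 ± 0.11 for each (adjusted p = 0.164 and 0.236). With RG7388 it was called without both libraries that lay apart (0.31, adjusted p = 0.0031) and with only the groups compared (0.29, adjusted p = 0.0322), and with HDM201 without both libraries (0.43, adjusted p = 0.00048). SERPINB2 was at 12.4 and 12.1 CPM against 9.49, and was not called (adjusted p = 0.13 and 0.267). Its libraries did not overlap, which also held for 25.8% and 13% of all genes tested. Without both libraries that lay apart SERPINB2 was called with each compound, at 0.39 (adjusted p = 0.0234) and 0.38 (adjusted p = 0.0319). Log2 changes of PLAUR, SERPINE2 and TFPI lay between -0.18 and 0.18. TFPI in Prolif_HDM201 had 1 library at 95.8 CPM beside 46.2 and 50.2, and the high one was replicate 3, which lay apart from its group.

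Whether the response to a compound differed between irradiated and proliferating cells was tested with an interaction term in the same model. The length of exposure in proliferating cells is not given, so cell state and exposure time cannot be told apart in it. For each compound 5 of 7 genes had a lower response in irradiated cells, where 7.47% of all genes were called for RG7388 (5.27% lower) and 8.64% for HDM201 (5.67% lower). The difference in log2 response was widest for TFPI2, at -2.94 ± 0.14 for RG7388 (adjusted p = 1.46e-12) and -2.86 ± 0.14 for HDM201 (adjusted p = 2.25e-12). For PLAU it was -1.42 ± 0.14 and -1.43 ± 0.14. The weakest called difference was that of PLAT with RG7388 (-0.48 ± 0.15, adjusted p = 0.0493), which was lost in 13 of 23 alternative analyses, the replicate block among them (adjusted p = 0.0536). TFPI was not called for either compound (-0.50 ± 0.30 and -0.69 ± 0.30), and without both libraries that lay apart it was called for RG7388 (-0.63, adjusted p = 0.00409). For PLAUR it was -0.06 ± 0.17 and -0.02 ± 0.17 and was not called, with intervals from -0.42 to 0.29 and from -0.38 to 0.33.

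Levels can be ranked across genes only per length, for which the authors' FPKM (fragments per length of transcript and per library size) were used. In Prolif_DMSO the order was PLAU (329 FPKM), PLAT (186), PLAUR (159), SERPINE2 (84.1), TFPI2 (28.1), TFPI (27) and SERPINB2 (5.8), and TFPI2 and TFPI were the only neighbours in this order whose libraries overlapped. After irradiation TFPI2 moved up to rank 3 at 294 FPKM, behind PLAU at 851 and PLAT at 644 and ahead of SERPINE2 at 177. PLAUR, TFPI and SERPINB2 then followed at 107, 82.6 and 56.5 FPKM, with overlapping libraries between neighbours. In irradiated cells given a compound PLAT came first, at 514 FPKM with RG7388 and 437 with HDM201, and PLAU second, at 394 and 392, with no overlap between the genes' libraries in either group. PLAUR stood at rank 3, at 104 and 107 FPKM.

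**Figure D3:**
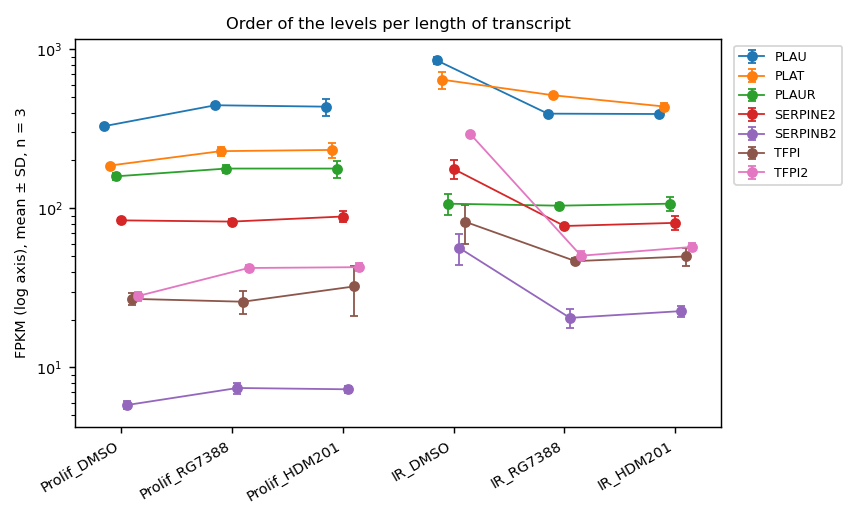
Mean FPKM of each gene in each group on a log axis, with the SD of 3 libraries as bars and lines that join the 3 treatments of a state. PLAU led in proliferating cells and in IR_DMSO, PLAT led in irradiated cells given either compound, and TFPI2 stood at rank 3 in IR_DMSO alone.

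Counts and FPKM came from different programs and did not always rank the libraries of a group alike. For SERPINB2, for example, replicate 1 of IR_DMSO had the lowest count level of its group (54.1 CPM) and the highest FPKM (70.5, beside 51.3 and 47.9). The same library was low for TFPI on both scales, at 56.5 FPKM beside 99.1 and 92.2.

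Ratios within a library, chosen after the levels were known, show the balance between the products without a comparison of library sizes. Urokinase mRNA exceeded tissue activator mRNA in every proliferating library, with a PLAU to PLAT ratio of 1.74 to 1.80 FPKM per FPKM in Prolif_DMSO. It was 1.16 to 1.63 in IR_DMSO, 0.75 to 0.78 in IR_RG7388 and 0.83 to 0.94 in IR_HDM201, so that the last 2 groups lay under 1 in all 6 libraries. Urokinase mRNA relative to receptor mRNA rose from 2.03 to 2.16 in Prolif_DMSO to 7.12 to 8.74 in IR_DMSO. With the compounds that ratio was 3.69 to 3.92 and 3.50 to 4.01, still above every proliferating library (at most 2.63). The TFPI2 to TFPI ratio was 0.88 to 1.18 in Prolif_DMSO, 3.05 to 5.05 in IR_DMSO, 0.98 to 1.19 in IR_RG7388 and 1.04 to 1.31 in IR_HDM201. The PLAU to SERPINE2 ratio, protease to inhibitor, was 3.73 to 4.18 in Prolif_DMSO and higher in every library of the other 5 groups, at 4.39 to 5.44, with Prolif_RG7388 highest at 5.34 to 5.44.

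**Figure D4:**
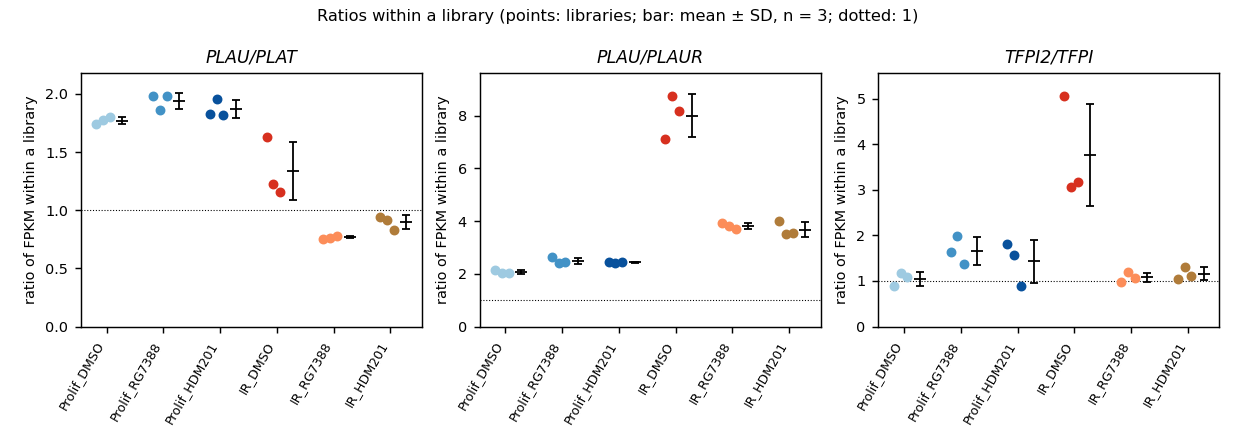
Ratio of the authors' FPKM of PLAU to PLAT, PLAU to PLAUR and TFPI2 to TFPI within each library, on linear axes from 0, with the mean and SD of 3 libraries beside the points and a dotted line at 1. PLAU to PLAT fell under 1 only in irradiated cells given a compound, and PLAU to PLAUR was highest in IR_DMSO.

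Across the 18 libraries the genes fell into patterns that pairwise correlations of log2 CPM describe. Group means were not removed, so r includes the differences between the 6 groups given above. The 3 libraries of a group are not independent points in it. PLAU and SERPINE2 had an r of 0.90 and PLAU and TFPI2 of 0.87. PLAT and SERPINB2 had an r of 0.96, and PLAUR ran opposite to TFPI, at -0.95, and to SERPINB2, at -0.90. PLAU and PLAT, both activators, had an r of 0.42 only.

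The genes whose pattern was most like each member were found by the same measure over the 18151 genes tested. For TFPI2 they were VWA5A (r = 0.986), AKR1B1 (0.985) and TM4SF1 (0.981), and for PLAU they were TBXAS1 (0.961), CSF1 (0.949) and UBA7 (0.945). SERPINE2 was nearest to SYT11 (0.968), the matrix metalloproteinase gene MMP3 (0.963) and RPS6KA2 (0.962). SERPINB2 was nearest to DRAM1 (0.986), MRGPRX3 (0.982) and NRG1 (0.980), and PLAT to BABAM2 (0.991), APLP1 (0.989) and NPTXR (0.987). TFPI was nearest to HIF1A (0.989), SAMD9L (0.983) and HGF (0.981), and PLAUR to PPM1G, P3H1 and VAV2 (0.988 each).

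The partners of the system outside the 7 genes moved in both directions. Over all genes tested, 51.6% were called after irradiation, 26.3% higher and 25.3% lower. In irradiated cells 22.8% were called with RG7388 (11.9% lower) and 21.3% with HDM201 (11.3% lower). In proliferating cells it was 1.54% and 0.7%. Whether the shares in the lists below differ from these was not tested. Plasminogen itself (PLG) was under the count filter, with group means of at most 0.101 CPM. Of 10 tested genes for plasminogen receptors, substrates and other inhibitors, 2 were higher and 3 lower after irradiation. Their median log2 change was -0.01, beside 0.05 over all genes. ENO1, a glycolytic enzyme that also binds plasminogen at the cell surface, fell by 1.15 ± 0.12 on the log2 scale (adjusted p = 1.85e-08). The plasminogen receptor PLGRKT fell by 0.77 ± 0.16 and S100A10, the partner of annexin A2 in binding plasminogen, fell by 0.65 ± 0.14. SERPINI1 (neuroserpin), an inhibitor of tissue plasminogen activator, rose from 0.295 ± 0.0494 to 4.02 ± 0.709 CPM. With RG7388 in irradiated cells 4 of the 10 were higher and 2 lower, and with HDM201 3 were higher, among them ANXA2 at 0.58 ± 0.12 and 0.63 ± 0.12, PLGRKT at 0.66 ± 0.15 and 0.71 ± 0.16 and S100A10 at 0.47 ± 0.14 and 0.50 ± 0.14.

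Of 15 tested partners and clearance receptors of the urokinase receptor, 2 were higher and 5 lower after irradiation. Their median log2 change was -0.19, beside 0.05 over all genes. The integrin subunits ITGA5 and ITGB3 fell by 1.54 ± 0.11 and 1.48 ± 0.15 on the log2 scale, and MRC2, the collagen uptake receptor that associates with PLAUR, fell by 0.92 ± 0.11. ITGA3, an integrin subunit that binds PLAUR, went from 450.2 ± 15.4 CPM in Prolif_DMSO to 222 ± 14.7 in IR_DMSO, 500.4 ± 2.88 in IR_RG7388 and 399 ± 20.8 in IR_HDM201, with called changes at each step (adjusted p = 6.43e-08, 3.94e-08 and 5.57e-06). With RG7388 5 of the 15 were higher, and with HDM201 3 were higher and 1, EGFR, was lower (-0.48 ± 0.13, adjusted p = 0.0112).

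Of 16 tested genes of tissue factor coagulation and thrombin receptors, 8 were higher and 1 lower after irradiation. Their median log2 change was 0.43, beside 0.05 over all genes. F3, tissue factor and the target of TFPI, rose from 386 ± 18.7 to 868 ± 46.6 CPM (1.17 ± 0.09, adjusted p = 2.16e-10) and was at 794 ± 52.8 CPM in IR_RG7388 and 872 ± 46.4 in IR_HDM201. THBD, thrombomodulin, was low throughout, at 0.32 ± 0.0587 CPM in Prolif_DMSO, 1.9 ± 0.16 in IR_DMSO, 0.351 ± 0.111 with RG7388 and 0.401 ± 0.0849 with HDM201, and its falls with the compounds were called (adjusted p = 0.000116 and 0.000381). GAS6, a vitamin K-dependent ligand of TAM receptors, rose by 0.84 ± 0.11 with irradiation and by a further 0.76 ± 0.11 and 0.75 ± 0.11 with the compounds. With RG7388 5 of the 16 were higher and 3 lower, and with HDM201 4 were higher and 2 lower.

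Among 9 other tested serpins, 3 were higher and 2 lower after irradiation. Their median log2 change was 0.06, beside 0.05 over all genes. The collagen chaperone SERPINH1 and the PEDF gene SERPINF1 fell by 1.91 ± 0.11 and 1.35 ± 0.11 on the log2 scale (adjusted p = 8.62e-13 and 9.49e-10). With RG7388 1 was higher and 2 lower, and with HDM201 1 was higher and 1 lower, and the higher one was SERPINB7 for both (0.82 ± 0.11 and 0.83 ± 0.11). In proliferating cells RG7388 lowered A2M, which encodes the broad protease inhibitor alpha-2-macroglobulin (-0.70 ± 0.15, adjusted p = 0.0133), and SERPINF1 (-0.50 ± 0.11, adjusted p = 0.0224), and HDM201 lowered A2M (-0.64 ± 0.15, adjusted p = 0.0374). No other gene of these 4 lists was called there by edgeR. Of the 15 urokinase receptor partners, 4 and 1 had an unadjusted p under 0.05 with RG7388 and HDM201, and DESeq2 called 0 for each compound. Of the 16 coagulation genes 5 and 4 did, and DESeq2 called 1 and 0.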

How the data were processed

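Poly(A) RNA was sequenced in 18 libraries, grouped by their titles. The authors aligned reads to hg38 with STAR and counted reads per gene with HTSeq. The deposited counts are whole and not normalized. The deposited FPKM values come from the authors' run of Cufflinks. For tool versions, annotation release and use of strand, nothing is given in the sources used here. The 7 genes and the gene lists were chosen with earlier results of these data known.

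The counts were tested with edgeR 4.0.16 (R 4.3.3). The 45 pseudoautosomal Y copies were left out, filterByExpr by group kept 18151 genes, and a robust quasi-likelihood model of the 6 group means used all 18 libraries, which left 12 residual degrees of freedom, with Benjamini-Hochberg adjustment over all genes and a threshold of 0.05. SE is the log2 change over the root of F. The test was tried on simulated data for irradiation within DMSO with 17474 genes, where 52% of 1.5-fold and 85% of 2-fold changes were recovered with 2 false calls. There 100 genes of each size were changed, all with a mean over 1 CPM. The spread followed its trend with level, and no library was set apart. In the data 51.6% of genes were called in this comparison, so these rates may not carry over. FPKM cells left blank numbered 600441, of which 68911 had a count, and genes with a blank were left out of FPKM analyses, which kept 18161 genes. No library pair agreed within sampling noise (chi-square per degree of freedom of 3.57 to 99.1). Replicate numbers did not pair the libraries, since 9 of 45 same-number pairs had a residual correlation over 0.1, and the block stayed an alternative. Gene IDs matched GENCODE 44 for 99.46% of genes. Named genes were the 7, up to 4 list genes per comparison by smallest p and the 3 most alike genes per member, from which the text gives a selection. Genes counted at very low levels and some others are not reported here. Alternatives were DESeq2 1.42.0 size factors and Wald test, library totals, no filter, 1 CPM in 3 libraries, the replicate block, only the groups compared, limma 3.58.1 on log2(FPKM + pseudocount), where the pseudocount was 1 or 0.1 and a minimum FPKM of 1 was kept or dropped, and leaving out libraries. Intervals cover the spread between libraries.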

Additional observations from a re-analysis of the deposited data

Results flagged for a closer look

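For 5 of the 7 genes the response to a compound differed between irradiated and proliferating cells in a test of the difference itself, an interaction term in edgeR. Over all genes tested, 7.47% were called for RG7388 (5.27% lower) and 8.64% for HDM201 (5.67% lower). With RG7388 the difference in log2 response was -1.42 for PLAU (adjusted p = 3.96e-07), -1.0 for SERPINE2 (adjusted p = 9.58e-05), -1.41 for SERPINB2 (adjusted p = 3.36e-06) and -2.94 for TFPI2 (adjusted p = 1.46e-12). For PLAT it was -0.48 (adjusted p = 0.0493), a value at the edge of the threshold whose call was lost in 13 of 23 alternative analyses. With HDM201 it was -1.43 for PLAU (adjusted p = 4.32e-07), -0.66 for PLAT (adjusted p = 0.00523), -1.11 for SERPINE2 (adjusted p = 2.93e-05), -1.28 for SERPINB2 (adjusted p = 1.31e-05) and -2.86 for TFPI2 (adjusted p = 2.25e-12). TFPI2 was higher with either compound in all 6 treated proliferating libraries than in any Prolif_DMSO library, and lower with either compound in all 6 treated irradiated libraries than in any IR_DMSO library. Both interactions use the same DMSO libraries, and the length of exposure in proliferating cells is not given.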

How the results depend on the processing

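Of 63 results (7 genes in 9 comparisons), 43 kept their side of the threshold in every alternative run, 17 for a comparison of groups and 23 for an interaction, and 35 of the 40 called results did so. No called result reversed. The numbers of genes of the 7 called were 7 after irradiation in every alternative. For Prolif_RG7388 against Prolif_DMSO the number was 2, and it was 0 to 1 when single libraries were left out, with 0 without replicate 1 of Prolif_DMSO, and 4 without both libraries that lay apart. For Prolif_HDM201 against Prolif_DMSO it was 1, and it was 2 with library totals, with the DESeq2 Wald test and with limma on log2 FPKM at pseudocounts of 1 and 0.1 and without the filter, 4 without both libraries that lay apart, and 1 to 3 when single libraries were left out, with 3 without replicate 3 of Prolif_HDM201. The cause was not tested. PLAT for RG7388 by state lost its call in 13 of 23 alternatives, at adjusted p up to 0.168 with no filter. The sign of PLAUR with the compounds in irradiated cells depended on the setting, with lowest values of -0.08 and -0.04.

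Counts of all genes called moved most in proliferating cells, from 279 to between 94 and 1436 for RG7388 and from 127 to between 21 and 2833 for HDM201, where replicate 3 of Prolif_HDM201 alone took it to 1672 when left out. Called interactions went from 1356 to at most 2204 for RG7388 and from 1568 to at most 3321 for HDM201. With library totals in place of TMM the median of all genes shifted by 0.289 after irradiation and by -0.187 and -0.147 with RG7388 and HDM201 in irradiated cells, and the share of called genes that were higher went from 51% to 71.5%, from 48% to 20.2% and from 46.8% to 22.5%. Directions of the called changes of the 7 genes were kept.

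With the replicate block, PLAT for RG7388 by state was no longer called (-0.48, adjusted p = 0.0536) and SERPINE2 against Prolif_DMSO was called with both compounds (-0.25 for each, adjusted p = 0.0409 and 0.0402). It changed no other call of the 7 genes.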

Other observations

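The nearest tested protein-coding genes on either side of each of the 7 were read after their values were known. Next to TFPI2, 31.0 kb away, GNG11, a G protein gamma subunit gene, rose by 1.65 on the log2 scale after irradiation and fell with both compounds, by 1.16 with RG7388 and by 0.88 with HDM201. CALCRL, a receptor gene 15.8 kb from TFPI, was not called after irradiation (-0.38, adjusted p = 0.418) and fell with both compounds, by 2.14 and 2.26. SERPINB7, 66.3 kb from SERPINB2, was at 0.21 after irradiation and was not called (adjusted p = 0.137), and it rose with both compounds where SERPINB2 fell. PLAT and its neighbour AP3M2, 3.0 kb away, also went apart after irradiation, at 1.51 and -0.25 (adjusted p = 0.0251 for AP3M2). IKBKB, 63.6 kb away on the other side of PLAT, rose with it, by 0.46 (adjusted p = 0.000326). SMG9, 57.4 kb from PLAUR, fell with PLAUR after irradiation, at -0.76 (adjusted p = 1.37e-05). VCL beside PLAU (-0.51, adjusted p = 0.000351), CUL3 beside SERPINE2 (-0.36, adjusted p = 0.00739) and GULP1 beside TFPI (-0.52, adjusted p = 0.015) fell where their neighbour rose. The remaining neighbours were not called after irradiation, where 51.6% of all genes tested were called. Whether neighbours moved together was not tested.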
